A study of Homo sapiens with 80 samples.

Results

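Transcript levels of 9 target genes of the transcription factor p53 were followed while human pluripotent stem cells were turned into cardiomyocytes: CDKN1A, MDM2, PHLDA3, TP53I3, FAS, ZMAT3, SESN1, RRM2B and BBC3. They were taken by name from both deposited tables of TPM values (transcript abundance, scaled for gene length and library size), and all 9 were found among the 43388 genes listed there. They were chosen by their measured levels in these libraries, so their differences between classes, days, passages and lines are described here without a test. The study sorted differentiations by their yield of cardiomyocytes, scored on day 16 by flow cytometry for cardiac troponin T, and sampled RNA along the way. In the multi-omic experiment every library came from the human induced pluripotent stem cell line WTC11. All 25 high purity libraries were wells of 1 differentiation at passage 52, and all 31 low purity libraries were wells of another at passage 69. In that experiment the purity class cannot be told apart from the passage or from the differentiation, and the error is that between wells of 1 culture run. Each class had 4 wells on days 0, 2, 4 and 6. The high purity class had 3, 1, 2 and 3 wells on days 8, 10, 13 and 16, and the low purity class had 4, 4, 4 and 3. The second, RNA-only experiment held 24 libraries, 1 high and 1 low purity differentiation in each of 3 lines at 4 matched stages. H9, an embryonic stem cell line, had its high purity run at passage 58 and its low purity run at passage 55. For IMR90-4, an induced pluripotent line, these were passages 55 (high) and 75 (low). For WTC11 they were passages 81 (high) and 69 (low). All cells received the GSK3 inhibitor CHIR99021 on day 0 and the WNT inhibitor IWP2 on day 2 (WTC11) or day 3 (H9 and IMR90-4), and insulin from day 6 or 7.

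p53 is a transcription factor that is held low in resting cells because MDM2, itself a p53 target, marks it for destruction. When DNA damage or other stress releases p53, it binds paired sites near its targets and raises genes that stop the cell cycle, repair DNA, limit oxidative stress or start cell death. Several p53 targets are known to rise as pluripotent stem cells leave the pluripotent state.

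In the RefSeq promoter table for GRCh38.p14, 7 of the 9 genes had an entry, with 15 start sites in all. The 250 bases before each start were searched on both strands for the p53 consensus decamer, and for a pair of such decamers with no bases between them. A pair with at most 2 mismatches was found for 2 of the 7 genes, MDM2 and FAS, while 0.71% of 27305 genes with such windows held one. With up to 3 mismatches SESN1 was added, making 3 of 7 genes against 5.38% of all genes. An exact single decamer was present for 2 of 7 genes against 6.8%. The 3 closest pairs are shown because they are where the reference sequence of these windows comes nearest to the letters p53 is known to bind. Each is given 5′ to 3′ on the strand of its gene, with the 20 bases of the pair in capitals. The MDM2 stretch lies at chr12:68808767-68809001, upstream of a start site inside the gene, and 7 annotated MDM2 transcripts span its pair with no exon there. It is the MDM2 window without its last 15 bases before the start site, which are exonic and not shown. The SESN1 window lies at chr6:109008989-109009238 on the minus strand, with no annotated exon in it, and 2 SESN1 transcripts span its pair. The FAS stretch lies at chr10:88991304-88991333, in a window covered by annotated exons of FAS and ACTA2, so only 30 bases are shown.
MDM2: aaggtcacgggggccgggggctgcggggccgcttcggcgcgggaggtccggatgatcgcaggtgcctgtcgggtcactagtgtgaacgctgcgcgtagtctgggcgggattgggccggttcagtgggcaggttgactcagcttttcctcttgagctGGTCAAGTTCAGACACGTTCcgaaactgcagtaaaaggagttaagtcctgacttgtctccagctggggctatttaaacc
SESN1: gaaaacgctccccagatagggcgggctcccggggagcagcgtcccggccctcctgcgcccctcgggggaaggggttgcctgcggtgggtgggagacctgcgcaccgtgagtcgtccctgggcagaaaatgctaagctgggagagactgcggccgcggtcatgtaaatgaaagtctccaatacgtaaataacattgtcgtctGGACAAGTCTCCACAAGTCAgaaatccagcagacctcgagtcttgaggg
FAS: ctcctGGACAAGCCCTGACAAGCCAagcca
Counted from the start site, the pair begins at position -94 for MDM2, -49 for SESN1 and -122 for FAS. The MDM2 and FAS pairs have 2 mismatches to the consensus and the SESN1 pair has 3. A match describes the letters of the reference and was not tested for binding. The other 4 genes with windows had no pair within 3 mismatches in these windows, which says nothing of sites elsewhere.

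The multi-omic libraries held 6579715 to 18143597 reads over genes, with a median of 12295719 for high and 10326510 for low purity, and the RNA-only libraries 17990882 to 40357968. All 9 genes passed the filter on low values in both experiments. FAS was the thinnest, with 6 to 12 reads in each high purity and 50 to 63 in each low purity well of day 4. The markers of the labelled cell types were present: 6 pluripotency genes summed to 4463 to 5380 TPM on day 0, and 11 cardiomyocyte genes summed to 12854 to 15018 TPM in the high purity wells of day 16 and 4672 to 6920 TPM in the low purity ones. The 7 stromal genes summed to 574 to 690 TPM in high purity and 9669 to 13143 TPM in low purity wells on that day. In bulk RNA a smaller share of cells expressing a gene and less RNA in each cell cannot be told apart.

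In GRCh38.p14 the protein-coding genes lie as follows. The regulators of growth and of p53 itself are CDKN1A at chr6:36676463-36687332, MDM2 at chr12:68808172-68850686 and PHLDA3 at chr1:201464278-201469188. The genes tied to cell death are FAS at chr10:88964050-89017059, BBC3 at chr19:47220824-47232860 and TP53I3 at chr2:24077433-24084834. The others are RRM2B at chr8:102204501-102238961, SESN1 at chr6:108984309-109094846 and ZMAT3 at chr3:179017223-179072513.

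On day 4, 2 days after IWP2 was added, all 9 genes were lower in the high purity than in the low purity differentiation, and for each of them every high purity well lay below every low purity well. The median log2 difference over the 9 genes was -1.14, and that over all 25664 genes tested was 0. Here and below a log2 difference is high minus low purity on the log2(TPM + 1) scale after TMM scaling, which understates changes of genes near 1 TPM, with its standard error from limma. Complete separation of the wells with high purity lower held for 9 of 9 genes, against 15.8% of all genes. That count comes from values by which these genes were chosen, and nothing is read from it.

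CDKN1A, which encodes the cyclin-dependent kinase inhibitor p21 and is the classic arrest gene of p53, had the widest gap of the 9 between the classes on day 4. The 4 high purity wells held 3.14, 3.82, 3.20 and 2.56 TPM, and the 4 low purity wells held 41.6, 35.7, 33.1 and 40.4 TPM. Every low purity well lay above every high purity well, with means of 37.7 ± 3.98 and 3.18 ± 0.518 TPM (SD, n = 4 each), an 11.9-fold gap and a log2 difference of -3.19 ± 0.16 (SE). The high purity wells of day 4 overlapped the undifferentiated cells, which held 1.56 to 3.69 TPM in high purity and 2.36 to 3.81 TPM in low purity wells at day 0.

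MDM2, the ubiquitin ligase that degrades p53 and closes the feedback loop, held 65.1, 52.0, 62.3 and 60.2 TPM in the high purity wells of day 4. The low purity wells held 118, 111, 105 and 114 TPM, so the lowest of them was far above the highest high purity well. The log2 difference was -0.89 ± 0.07. PHLDA3, which encodes a pleckstrin homology protein that competes with AKT for membrane lipids, held 4.19, 7.84, 6.50 and 7.07 TPM in high purity wells. In low purity wells it held 40.4, 35.0, 34.8 and 40.4 TPM, a 5.88-fold gap and a log2 difference of -2.39 ± 0.16. For both genes the highest high purity well lay below the lowest low purity well.

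Among the genes tied to cell death, FAS, a death receptor of the tumour necrosis factor receptor family, held 0.180, 0.120, 0.302 and 0.278 TPM in high purity wells of day 4. The low purity wells held 1.70, 1.68, 1.75 and 1.80 TPM. That is a 7.86-fold gap in mean TPM, though the log2 difference with 1 added was only -1.14 ± 0.12, and it was -2.54 with 0.1 added. FAS shares 8.93% of its exonic bases with ACTA2 on the opposite strand, and the strand setting of the counting is not given in the sources used here. ACTA2 was at 4.04 to 6.17 TPM in the high and 92.4 to 120 TPM in the low purity wells of that day, and the part of such reads in FAS was not tested. BBC3, which encodes the BH3-only protein PUMA, held 8.30, 8.16, 7.13 and 7.48 TPM in high purity wells and 16.6, 16.1, 15.0 and 12.5 TPM in low purity wells. Its log2 difference of -0.86 ± 0.13 was the smallest of the 9 in size with 1 added. With 0.1 added that of MDM2 was smaller, at -0.90 against -0.93 for BBC3. TP53I3, an oxidoreductase gene linked to reactive oxygen species, held 7.08, 8.47, 9.19 and 6.84 TPM in high purity wells. It held 21.2, 17.6, 17.8 and 20.1 TPM in low purity wells, a log2 difference of -1.17 ± 0.11.

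RRM2B, SESN1 and ZMAT3, tied to nucleotide supply, metabolic control and RNA binding, were lower in high purity too. RRM2B, the p53-inducible small subunit of ribonucleotide reductase, held 33.9, 25.3, 29.2 and 29.7 TPM in high purity wells of day 4. It held 69.6, 61.3, 55.2 and 60.7 TPM in low purity wells, a log2 difference of -1.03 ± 0.08. SESN1, a sestrin that restrains mTORC1, held 17.7, 11.3, 13.1 and 18.6 TPM against 31.7, 32.3, 29.5 and 35.2 TPM. The log2 difference was -1.05 ± 0.10. ZMAT3, a zinc finger protein that binds RNA, held 20.1, 15.7, 17.2 and 19.1 TPM against 54.3, 52.1, 48.9 and 53.7 TPM, a log2 difference of -1.48 ± 0.08. Exons of other members overlap other genes as well: PHLDA3 shares 19.06% of its exonic bases with the non-coding AC096677.2, SESN1 7.09% with an antisense gene, MDM2 5.91% with an antisense gene and CDKN1A 4.79% with DINOL.

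Cell type markers also differed between the classes on day 4. The pluripotency genes summed to 1937 to 2566 TPM in high purity and 1011 to 1148 TPM in low purity wells, and the 11 cardiomyocyte genes to 240 to 312 and 1847 to 2079 TPM. The 7 stromal genes summed to 342 to 515 TPM in high purity and 1396 to 1471 TPM in low purity wells. The 4 smooth muscle genes summed to 49.5 to 60.7 and 259 to 324 TPM, with the row named MYH11 listed at 0 in all wells of both classes. The 6 endothelial genes summed to 220 to 279 and 360 to 381 TPM, with 4 of them lower and 2 higher in high purity. The 5 endoderm genes summed to 112 to 137 TPM in high purity and 95.4 to 114 TPM in low purity wells, with 3 lower and 2 higher. The part of these cell types in the differences of the 9 genes was not tested.

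**Figure D1:**
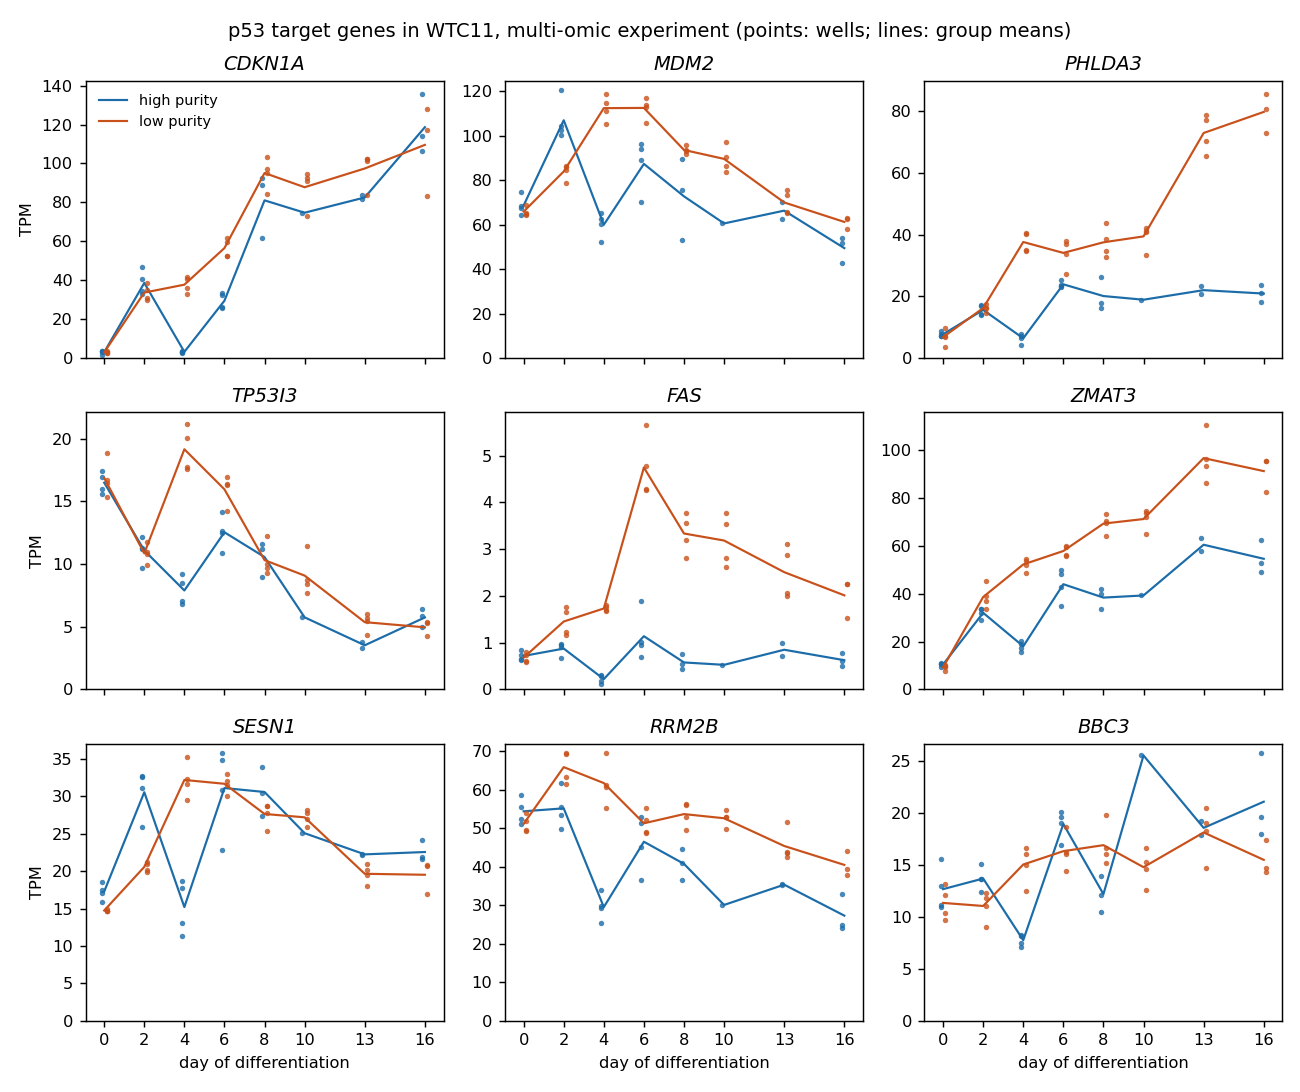
TPM (vertical axes, each starting at 0) of the 9 genes against day of differentiation in the multi-omic experiment, with 1 point per well and lines through the group means, high purity in blue and low purity in orange. On day 4 the blue points lie below the orange points in all 9 panels, and CDKN1A dips from a mean of 38.6 TPM on day 2 to 3.18 TPM in high purity only, while its low purity mean is 37.7 TPM.

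The differences between the classes were smaller before day 4. On day 0 the median log2 difference of the 9 genes was 0.03, and on day 2 it was 0.09. CDKN1A held 46.6, 40.4, 33.0 and 34.2 TPM in high purity and 31.0, 38.4, 29.9 and 35.2 TPM in low purity wells of day 2, so the wells overlapped. From day 0 to day 2 its log2 difference was 3.32 ± 0.16 in high and 3.02 ± 0.16 in low purity, and ZMAT3 followed with 1.51 ± 0.08 and 1.80 ± 0.08. PHLDA3 was higher by 0.90 ± 0.16 and 1.06 ± 0.16, while TP53I3 was lower by a log2 difference of -0.57 ± 0.11 in high and -0.74 ± 0.11 in low purity. Every high purity well of day 2 lay above every low purity well for MDM2, SESN1 and BBC3, with log2 differences of 0.41 ± 0.07, 0.61 ± 0.10 and 0.35 ± 0.13, and below for FAS, at -0.35 ± 0.12. Of all genes 15.7% were separated that way with high purity higher on day 2 and 18.3% with high purity lower.

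From day 2 to day 4 all 9 genes were lower in the high purity differentiation, with a median log2 difference of -0.94 against 0.03 over all genes. The largest were CDKN1A at -3.34 ± 0.16, PHLDA3 at -1.29 ± 0.16 and SESN1 at -1.10 ± 0.10. In the low purity differentiation 8 of 9 genes were higher on day 4 than on day 2, led by PHLDA3 at 1.11 ± 0.16 and TP53I3 at 0.71 ± 0.11. The exception was RRM2B at -0.15 ± 0.08. From day 4 to day 6 the high purity genes came back: all 9 were higher, with CDKN1A at 2.77 ± 0.16, PHLDA3 at 1.69 ± 0.16, ZMAT3 at 1.15 ± 0.08 and BBC3 at 1.10 ± 0.13. In low purity FAS was higher on day 6 than on day 4 by 1.00 ± 0.12. In high purity the day 4 means of all 9 genes thus lay below those of both day 2 and day 6.

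After day 6 the 9 genes differed in direction between the classes. CDKN1A was higher again on day 8 than on day 6 in high purity, by 1.66 ± 0.18. It reached 106, 136 and 114 TPM in high purity and 83.4, 128 and 117 TPM in low purity wells of day 16, and the classes overlapped. Its log2 difference was -0.94 ± 0.16 on day 6 with no overlap of wells, -0.02 ± 0.18 on day 8 and 0.35 ± 0.19 on day 16. PHLDA3 instead stayed near its day 6 level in high purity, at 21.0, 23.6 and 18.1 TPM on day 16, and reached 73.1, 80.7 and 85.8 TPM in low purity. There it was higher on day 16 than on day 8 by 1.29 ± 0.17. Its log2 difference was -1.50 ± 0.19 on day 13 and -1.68 ± 0.18 on day 16. On day 6 FAS held 1.90, 0.940, 1.02 and 0.699 TPM in high purity and 4.27, 4.28, 4.78 and 5.65 TPM in low purity wells, a log2 difference of -1.42 ± 0.12, and on day 8 the difference was -1.32 ± 0.13. ACTA2 on those days was at 231 to 482 and 714 to 915 TPM in high purity and 480 to 553 and 562 to 907 TPM in low purity wells. ZMAT3 wells did not overlap on any tested day from day 4 on, with log2 differences from -0.41 ± 0.08 on day 6 to -0.61 ± 0.09 on day 8 after the -1.48 of day 4. On day 16 it held 48.9, 62.3 and 52.7 TPM in high purity and 82.6, 95.7 and 95.6 TPM in low purity wells.

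Other genes turned the other way late. SESN1 was higher in high purity on days 8, 13 and 16, by 0.36 ± 0.11, 0.36 ± 0.12 and 0.42 ± 0.12. Its wells separated on day 13, with 2 high and 4 low purity wells, and on day 16, with 3 of each. The share of all genes so separated is not given for any day from day 6 on. Nothing is read from these separations or from those of CDKN1A and ZMAT3 after day 4. BBC3 was higher by 0.62 ± 0.14 on day 16, with 18.0, 25.8 and 19.6 TPM in high purity and 14.3, 14.8 and 17.5 TPM in low purity wells. MDM2 had a log2 difference of 0.11 ± 0.09 on day 13 that turned to -0.08 without TMM scaling, so its order on that day depends on the scaling. The signs of the day 4, 6, 8 and 16 differences were kept without scaling for all 9 genes. On day 10, with a single high purity well, CDKN1A was at 74.7 TPM in it and at 91.2, 94.5, 92.3 and 73.1 TPM in the low purity wells. PHLDA3 was at 18.9 TPM in that well and at 33.6 to 42.1 TPM in low purity wells, and BBC3 at 25.6 TPM against 12.6 to 16.6 TPM.

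In order of mean level over the 16 combinations of class and day, CDKN1A had 3 steps with no overlap between neighbours. The day 0 groups of both classes and the high purity day 4 group lay at the bottom, at 2.93 to 3.18 TPM, and overlapped each other. The next group up, high purity on day 6, was at 29.5 TPM. The ratio of the highest to the lowest group mean was 40.4 for CDKN1A, 21.6 for FAS, 12.5 for PHLDA3 and 10.5 for ZMAT3, and between 2.18 for SESN1 and 5.44 for TP53I3 for the other 5. High purity on day 4 was the lowest of the 16 groups for PHLDA3, FAS and BBC3. Across these 16 group means the pairwise Pearson correlation of the 9 genes ran from -0.64 for TP53I3 with ZMAT3 to 0.94 for CDKN1A with ZMAT3, over groups that share wells of only 2 differentiations.

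**Figure D2:**
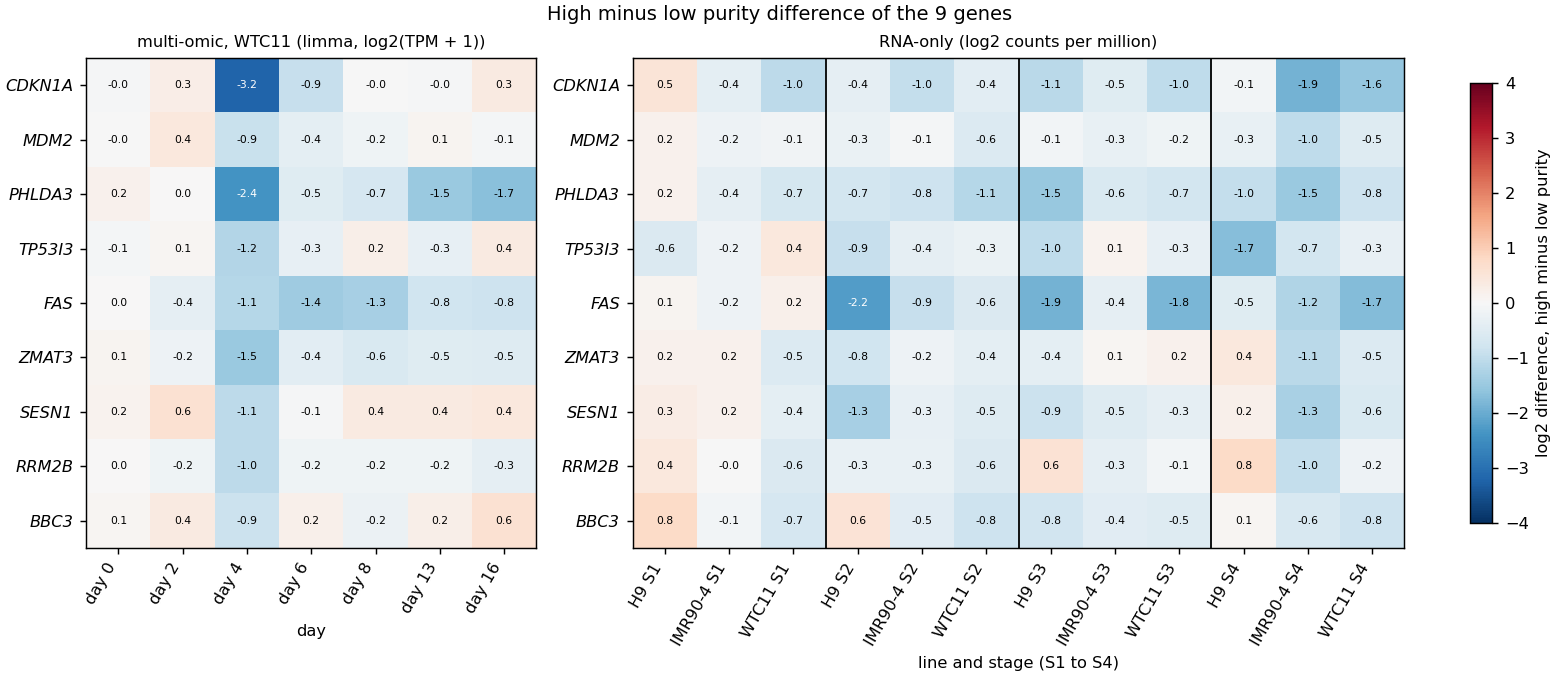
High minus low purity log2 difference of each gene (rows), on the 7 tested days of the multi-omic experiment (left, limma on log2(TPM + 1)) and in each line and stage of the RNA-only experiment (right, log2 CPM, 1 library per class). Blue is lower in high purity. The day 4 column on the left is blue in all 9 rows, and at stage 2 on the right BBC3 in H9 is the single value above 0.

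In the RNA-only experiment most of the 9 genes were lower in high purity from stage 2 on. Stage 1 is day 0, stage 2 is day 2 or 3, stage 3 is day 4 or 5 and stage 4 is day 6 or 7. With edgeR's quasi-likelihood test over 23848 genes no gene at all was called at any stage, a background of 0%, and 1.48%, 7.95%, 7.54% and 12.1% of all genes had an unadjusted p under 0.05 at stages 1 to 4. A gene was called, here and below, where its adjusted p was under 0.05 and its log2 difference was at least 1 in size. The 3 lines are the replicates here. Counts of genes lower or higher in high purity by line, here and below, use log2 CPM, not TPM. CPM is reads scaled for library size only, here with TMM. On that scale 0, 8, 6 and 5 of the 9 genes were lower in high purity in all 3 lines at stages 1 to 4. Of all genes 14.3%, 14.8%, 13.9% and 15.8% were so. No gene of the 9 was higher in all 3 lines at any stage, where 11.9%, 14.6%, 13.1% and 16.4% of all genes were. These counts too belong to the values by which the genes were chosen.

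By log2 CPM, H9 had 1, 8, 8 and 5 of the 9 genes lower in high purity at stages 1 to 4. IMR90-4 had 7, 9, 7 and 9, and WTC11 had 7, 9, 8 and 9. Some counted genes were near-ties that TPM orders the other way. MDM2 in H9 at stage 3 was counted lower, at 16.1 TPM in the high and 15.7 TPM in the low purity library. CDKN1A in H9 at stage 4 was too, at 19.6 and 19.5 TPM. Both are among the genes counted lower in all 3 lines at these stages. FAS in H9 at stage 1 was counted higher, at 0.343 and 0.355 TPM. At stage 2 CDKN1A was at 21.1 TPM in the high and 27.2 TPM in the low purity library of H9. It was at 6.56 and 12.5 TPM in IMR90-4, and at 13.8 and 17.2 TPM in WTC11. PHLDA3 was lower in the high purity library of every line at stages 2, 3 and 4: at stage 3 it held 6.64 and 17.5 TPM in H9, 9.62 and 14.0 TPM in IMR90-4, and 2.98 and 4.46 TPM in WTC11. FAS was lower in every line at the same stages, with edgeR log2 differences of -1.27, -1.39 and -1.17, on 15 to 86 reads per high purity and 66 to 187 per low purity library. At stage 3 FAS was at 0.196 and 0.682 TPM in H9, 0.221 and 0.272 TPM in IMR90-4, and 0.0711 and 0.243 TPM in WTC11. TP53I3 stood out in H9, with 9.71 and 18.4 TPM at stage 2, 7.46 and 14.0 TPM at stage 3 and 7.85 and 23.6 TPM at stage 4.

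At stage 4 the low purity library of IMR90-4, at passage 75 and day 7, held the highest value of the stage for every one of the 9 genes but TP53I3. CDKN1A was at 57.8 TPM there and at 15.3 TPM in the high purity IMR90-4 library, while the other 4 libraries lay between 3.63 and 19.6 TPM. MDM2 was at 32.9 against 15.8 TPM, PHLDA3 at 44.2 against 15.5 TPM, SESN1 at 20.6 against 8.23 TPM and RRM2B at 25.6 against 12.8 TPM. The 11 cardiomyocyte genes summed to 4910 TPM in that library and 4452 TPM in its high purity partner, and the 7 stromal genes to 231 and 316 TPM. In H9 at the same stage the cardiomyocyte genes summed to 374 TPM in low and 2436 TPM in high purity, and the stromal genes to 1693 and 442 TPM. H9 had RRM2B at 18.1 TPM in high purity and 9.73 TPM in low purity, and ZMAT3 at 10.1 and 6.85 TPM. SESN1 was at 12.0 and 9.61 TPM there and BBC3 at 14.0 and 12.1 TPM, so these 4 genes were higher in high purity in H9 and lower in the other lines. The part of cell makeup in either line was not tested.

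Undifferentiated cells allow the passages to be set side by side, though each passage was a different differentiation. In WTC11 at day 0 the RNA-only libraries of passage 81 (high purity) and passage 69 (low purity) held CDKN1A at 2.27 and 4.50 TPM, PHLDA3 at 8.57 and 13.4 TPM and TP53I3 at 40.1 and 28.4 TPM. The multi-omic wells of passages 52 and 69 overlapped for 8 of the 9 genes, and SESN1 was at 17.3 ± 1.12 against 14.7 ± 0.124 TPM (SD, n = 4 each) with no overlap, where 16.7% of all genes were separated with high purity higher. In H9, passages 58 (high) and 55 (low) held CDKN1A at 13.0 and 10.1 TPM and BBC3 at 20.3 and 13.4 TPM. IMR90-4 at passages 55 (high) and 75 (low) held CDKN1A at 6.43 and 8.13 TPM and PHLDA3 at 14.9 and 18.2 TPM. The older passage was the lower one for CDKN1A in WTC11 and the higher one in H9 and IMR90-4 within the RNA-only table.

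**Figure D3:**
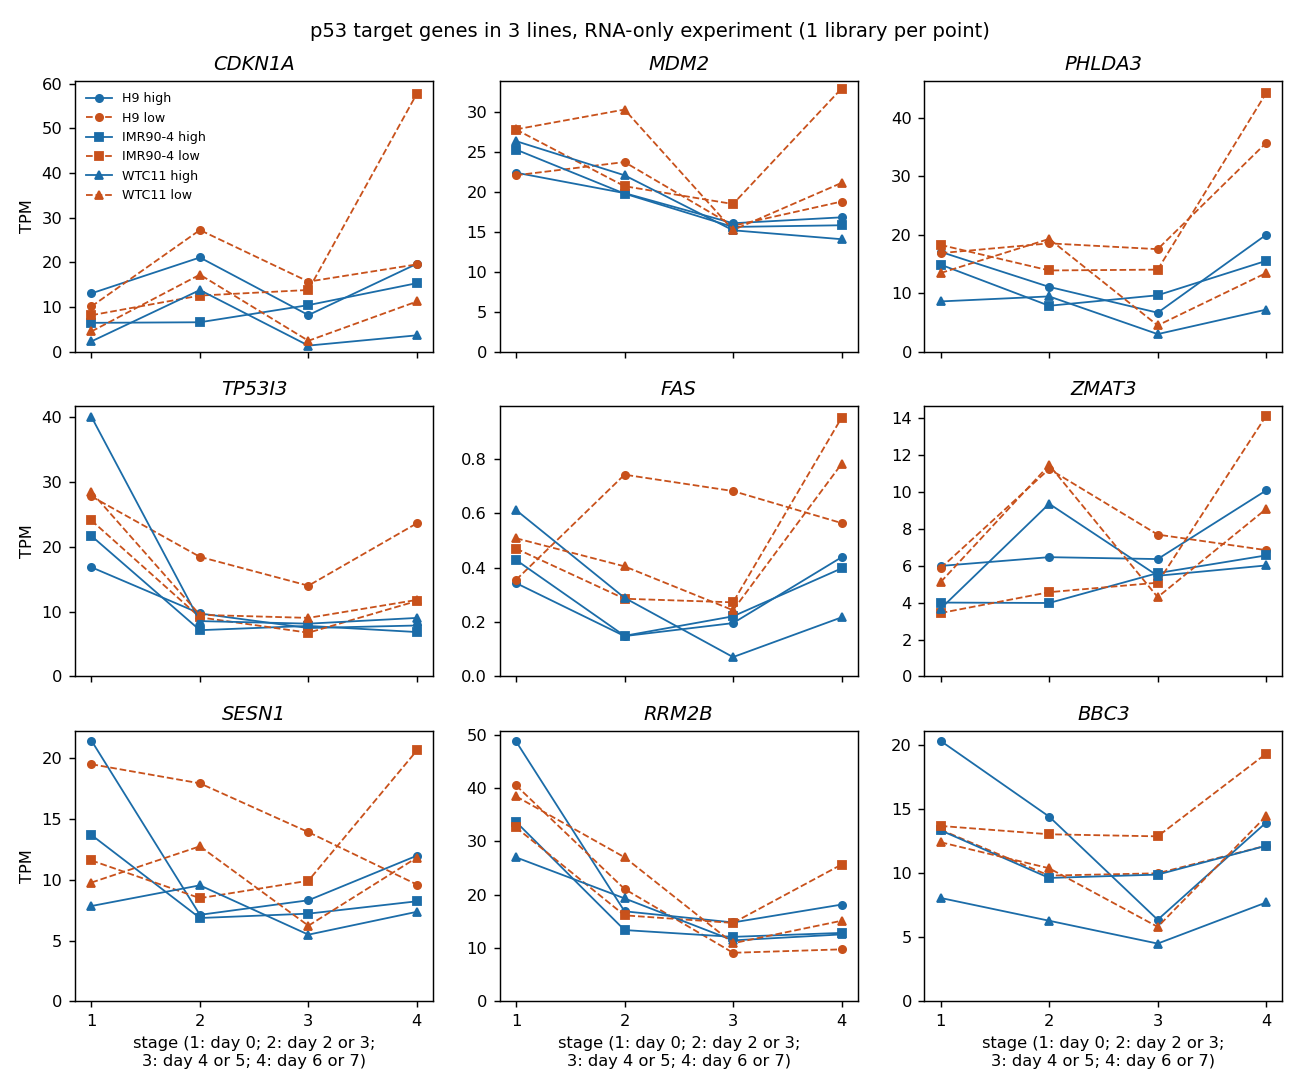
TPM (vertical axes, each starting at 0) of the 9 genes by stage in the RNA-only experiment, with 1 library per point, high purity as solid blue and low purity as dashed orange lines and 1 symbol per line. Both WTC11 lines dip at stage 3 for CDKN1A, to 1.33 and 2.41 TPM, and the IMR90-4 low purity library stands highest at stage 4 for CDKN1A, at 57.8 TPM.

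The step from stage 2 to stage 3 was then read within each differentiation. In WTC11 the 9 genes were all lower at day 4 than at day 2 in TPM in the passage 52 high purity wells, in the passage 81 high purity library and in the passage 69 low purity library of the RNA-only experiment. Their median log2 changes of TPM were -0.90, -0.78 and -1.04. In the passage 69 low purity wells of the multi-omic experiment 8 of the 9 were higher at day 4, with a median of 0.43. CDKN1A went from 38.6 to 3.18 TPM at passage 52, from 13.8 to 1.33 TPM at passage 81 and from 17.2 to 2.41 TPM in the passage 69 RNA-only library, but from 33.6 to 37.7 TPM in the passage 69 multi-omic wells. PHLDA3 went from 15.6 to 6.40, from 9.42 to 2.98, from 19.3 to 4.46 and from 16.2 to 37.6 TPM in the same order. The low purity WTC11 differentiations of the same passage number thus went in opposite directions in the 2 experiments for 8 of the 9 genes. This difference was not tested. The 11 cardiomyocyte genes summed to 63.8 to 74.3 TPM on day 2 and 1847 to 2079 TPM on day 4 in the multi-omic wells. In the RNA-only library of passage 69 they summed to 29.2 and 80.5 TPM. The 6 pluripotency genes summed to 1292 to 1344 and 1011 to 1148 TPM in those wells. In that library they summed to 1416 and 1145 TPM. The part of cell makeup was not tested. The tables were normalised separately and the libraries prepared with different kits, poly(A) selection in one and total RNA in the other, so changes within a table are set side by side and levels across tables are not compared. H9 had 7 of 9 genes lower at stage 3 in high and 8 of 9 in low purity. IMR90-4 had 2 of 9 lower in high and 5 of 9 in low purity.

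Beyond the 9 genes, 52 other p53 targets were listed by role, of which 51 passed the filter, and these were tested with limma across all genes. Earlier results of these data were known when the list was drawn up. On day 0 and day 2 none was called by limma between the classes, where 1.07% and 5.33% of all genes were. At an unadjusted p under 0.05 were 23 and 32 of 51, against 25.7% and 44% of all genes. On day 0 their median log2 difference was 0.17 against 0.01 over all genes. The wells of that day were separated with high purity higher for 19 of 51, against 16.7% of all genes. With high purity lower they were separated for 1, where the share of all genes is not given, and nothing is read from that count. On day 4 12 of 51 were called lower and 3 higher in high purity, where 4.22% and 3.62% of all genes were, and the median log2 difference was -0.51 against 0 over all genes. Day 6 had 3 of 51 lower and 3 higher, where 5.19% and 3.61% of all genes were. Day 8 had 5 and 1, against 7.5% and 4.66% of all genes, and day 13 had 6 and 1, against 6.23% and 4.55%. Day 16 had 9 lower and 4 higher, against 7.65% and 5.76% of all genes. These counts were not tested against the background, and those of days 6, 8 and 13 lie within a few genes of it.

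The largest of these differences on day 4 was that of DRAM1, a regulator of autophagy, at 0.758 against 5.50 TPM (log2 difference -1.86 ± 0.16, limma adjusted p = 2.75e-13). EDA2R, a receptor of the tumour necrosis factor receptor family, was at 3.06, 4.08, 4.46 and 3.67 TPM in high purity and 16.9, 15.5, 15.4 and 15.3 TPM in low purity wells (-1.79 ± 0.12, limma adjusted p = 2.12e-16). SPATA18, which acts in mitochondrial quality control, was at 2.10 against 9.07 TPM (-1.70 ± 0.11, limma adjusted p = 1.46e-16). PMAIP1, the gene of the BH3-only protein NOXA, held 96.8, 91.9, 88.4 and 81.2 TPM in high purity and 34.1, 32.6, 29.5 and 32.7 TPM in low purity wells of day 4 (1.45 ± 0.14, limma adjusted p = 1.13e-11). It thus lay opposite to BBC3, the BH3-only gene among the 9. On day 8 the high purity level of PMAIP1 was the lower one, 3.44 against 20.6 TPM (-2.08 ± 0.15, limma adjusted p = 2.10e-15). PGF, a growth factor of the VEGF family, and CD82, a tetraspanin, were higher in high purity on day 4, by 1.61 ± 0.16 (limma adjusted p = 2.88e-11) and 1.09 ± 0.15 (limma adjusted p = 3.89e-08).

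Some genes differed late in the protocol. On day 16 LIF was at 1.31 against 14.0 TPM (-2.60 ± 0.20, limma adjusted p = 9.79e-15), DRAM1 at 2.13 against 19.4 TPM and PLK2 at 64.4 against 388 TPM. TGFA had the higher level in high purity, with 2.20 against 0.414 TPM (1.39 ± 0.16, limma adjusted p = 5.09e-10). In the RNA-only experiment none of the 51 was called by edgeR at any stage, with 0, 8, 8 and 15 at an unadjusted p under 0.05 and 0, 2, 0 and 1 called by DESeq2. They were lower in high purity in all 3 lines for 10, 18, 18 and 15 of 51 genes at stages 1 to 4 and higher in all 3 for 5, 4, 1 and 4, beside the shares of all genes given above, of which 14.8% were lower and 14.6% higher at stage 2.

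**Figure D4:**
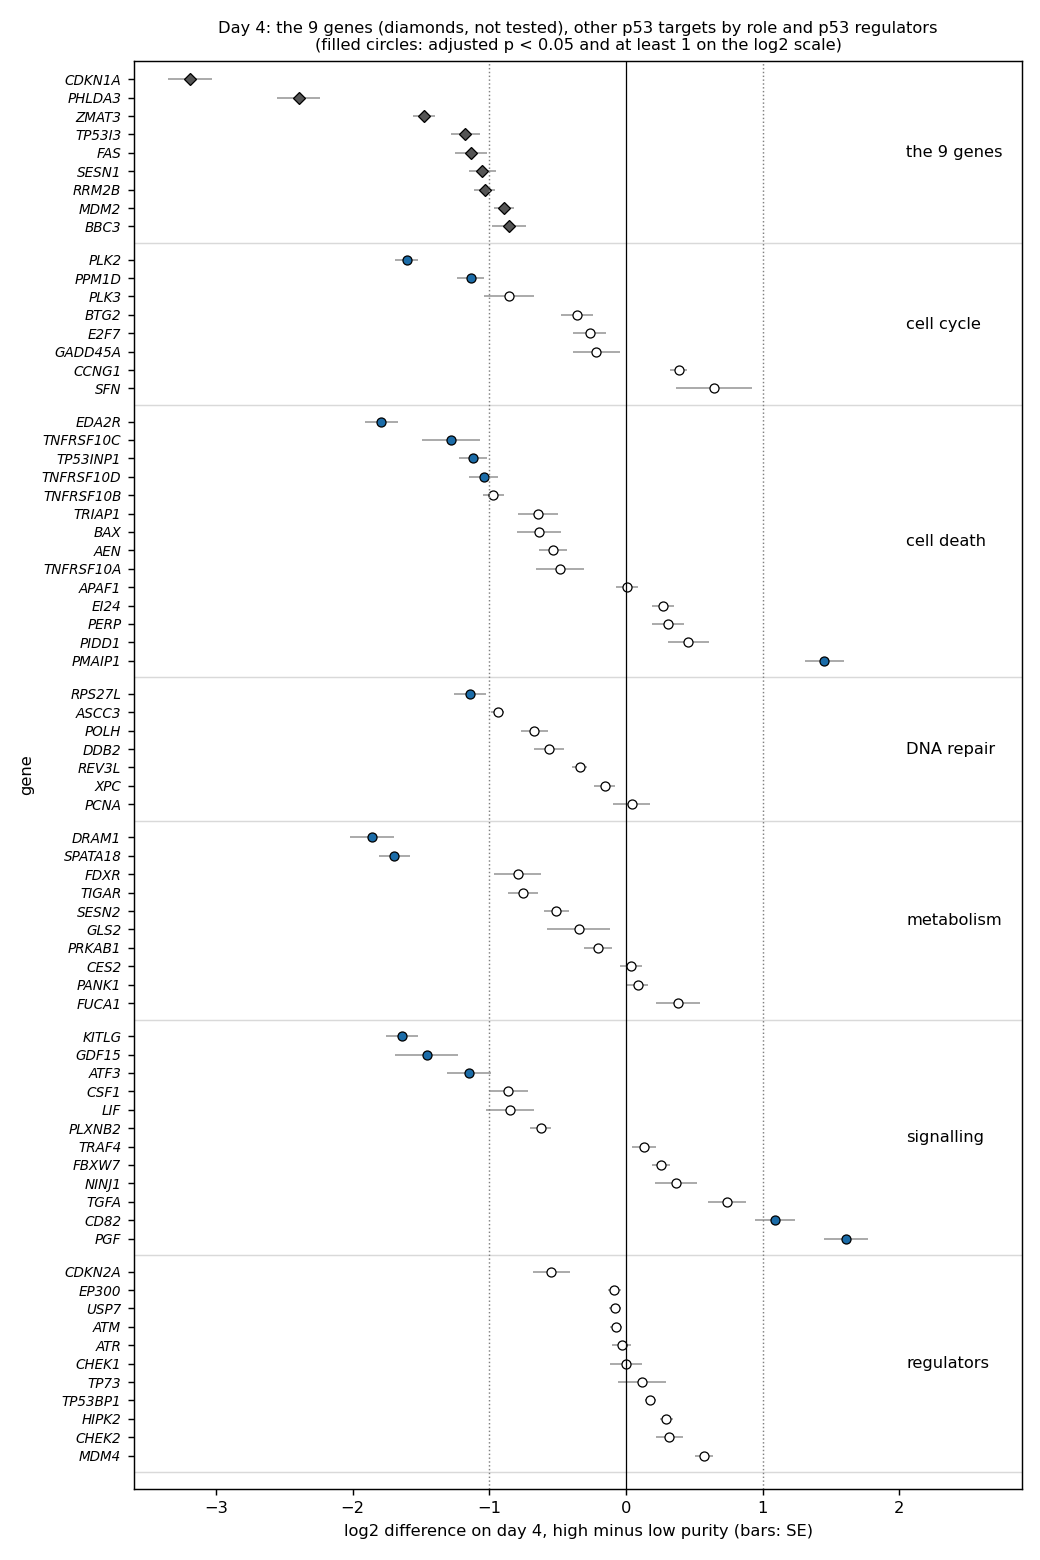
Log2 difference on day 4, high minus low purity (horizontal axis, bars are standard errors), of the 9 genes (diamonds, not tested), of 51 other p53 targets by role and of 11 p53 regulators. Filled circles passed an adjusted p under 0.05 with a log2 difference of at least 1 in size: 12 lie to the left and 3 to the right, and no regulator is filled.

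Of 11 regulators of p53 tested with limma on day 4, none was called between the classes. Of all genes 4.22% were called lower and 3.62% higher that day. At an unadjusted p under 0.05 were 5 of the 11, against 43.3% of all genes. MDM4, which binds and restrains p53, was higher in high purity by 0.57 ± 0.07 (limma adjusted p = 8.05e-10), under the fold threshold, at 39.7 ± 5.66 against 26.3 ± 1.30 TPM (SD, n = 4 each). CHEK2, a kinase that activates p53 after DNA breaks, was higher in high purity on day 2, at 169 against 87.6 TPM (1.01 ± 0.10, limma adjusted p = 2.70e-11). CDKN2A, which encodes p16 and the MDM2 inhibitor ARF, was lower in high purity on day 16, at 0.216 against 3.08 TPM (-1.76 ± 0.16, limma adjusted p = 6.94e-13). These are RNA levels, and no protein was analysed here.

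Genes related to the 9 by family or function showed no limma call on day 4 among 13 tested. Of all genes 4.22% were called lower and 3.62% higher that day. At an unadjusted p under 0.05 were 9 of the 13, against 43.3% of all genes. PHLDA1, a paralog of PHLDA3, was higher in high purity on day 2, at 130 against 44.3 TPM (1.59 ± 0.11, limma adjusted p = 3.31e-15), a day on which PHLDA3 wells overlapped. SESN3, a paralog of SESN1, was lower in high purity on day 16, at 28.8 against 79.3 TPM (-1.22 ± 0.08, limma adjusted p = 5.13e-17), where SESN1 was slightly higher. RRM2, the S-phase counterpart of RRM2B, was lower on day 16 at 1.50 against 11.1 TPM (-2.15 ± 0.15, limma adjusted p = 4.91e-16). CASP8, the caspase that FAS recruits, was lower in high purity on days 6, 8, 13 and 16, at 1.59 against 7.69 TPM on day 8 (-1.56 ± 0.20, limma adjusted p = 7.49e-09). BCL2L11, which encodes the BH3-only protein BIM, was higher in high purity on days 6 and 8, at 21.0 against 9.78 TPM on day 6 (1.07 ± 0.13, limma adjusted p = 7.11e-09). BCL2, the survival gene, was lower on days 8 and 13, at 0.889 against 3.68 TPM on day 8 (-1.16 ± 0.13, limma adjusted p = 4.19e-10). Also tested with limma were 23 cell cycle genes that p21 is known to repress through the DREAM complex. On day 4 none was called, beside the shares of all genes given above. At an unadjusted p under 0.05 were 9 of the 23, against 43.3% of all genes. The median log2 difference of the 23 was 0.04. Their sum was 3188 to 3642 TPM in high purity and 3335 to 3423 TPM in low purity wells that day, and the range of the low purity wells lay inside that of the high purity wells. On day 8 none of the 23 was called by limma, where 7.5% of all genes were called lower and 4.66% higher. Their median log2 difference was -0.44 against -0.03 over all genes, with 18 at an unadjusted p under 0.05 and 22 below 0. The shares of all genes for these last counts are not given, and nothing is read from them. On day 16 limma called 6 of 23 lower in high purity and none higher, against 7.65% and 5.76% of all genes, with a median log2 difference of -0.71. MYBL2, a transcription factor of the cell cycle named after its value was seen, was at 3.10 against 15.8 TPM that day (-1.86 ± 0.18, limma adjusted p = 3.31e-12). From day 2 to day 4 in high purity 4 of the 23 were called higher and 1 lower, where 6.73% and 6.96% of all genes were: MYBL2, MCM6, E2F1 and CCNE2 were higher and BUB1 was lower, all named after their values were seen.

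The genes most like the 9 in their pattern were found by the Pearson correlation of their 16 group means with the average of the standardised log2 means of the 9. EDA2R ranked the highest at 0.88, and SEMA5A, SNORD123 and IFIT5 were also among the 5 nearest, with 0.84, 0.84 and 0.81. EDA2R, listed above, is the only one of these 4 on the list of other p53 targets. RPS27L, named after its value was seen, is a further listed target and ranked 6 at 0.80. The 9 genes themselves correlated with that average between 0.03 for TP53I3 and 0.75 for SESN1.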

How the data were processed

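RNA was sequenced from 56 multi-omic (stranded poly(A)) and 24 RNA-only (stranded total RNA) libraries. Per the submitters' processing notes the tools were STAR 2.5.3a and featureCounts 2.0.3 with build hg38, and the authors deposited a count table and a TPM table for each experiment. For the multi-omic experiment 0 of 56 count columns matched the reads recovered from the equally named TPM column, while 50 matched a TPM column of another name and 6 matched none. The nearest other column came from the same group for 53 of 55 TPM columns and 29 of 55 count columns. The deposited TPM values were therefore used for that experiment. This nearness shows that most columns of a group lie together and cannot show that the name of a whole group is right. Which table carries the right names was not settled, and every multi-omic result here rests on the TPM column names. Among the RNA-only counts, 36 broken lines were left out. After TMM scaling (edgeR 4.0.16) and a pseudocount of 1, limma-trend (limma 3.58.1, R 4.3.3) was run on the log2 scale with 16 group means and 40 residual degrees of freedom. It covered 25664 genes that reached 1 TPM in 3 or more libraries. RNA-only counts as deposited by the authors were fitted with edgeR's quasi-likelihood test (TMM, filterByExpr, 23848 genes, line by stage means plus 4 high minus low terms, 8 residual degrees of freedom). P-values were adjusted by Benjamini-Hochberg over all genes tested; a call needed an adjusted p under 0.05 and a log2 difference of at least 1. Reads were recovered from TPM for 37221 genes with a solved length, and 100% of their values above 0 came out whole (within 0.01 reads times the square root of the value in reads, or 0.01 reads below 1 read); edgeR on them was an alternative. P-values measure the spread between wells or lines only. The 9 genes and all lists were chosen with earlier results of these data known. Named genes were the 9, any regulator or relative, up to 3 other targets per direction and day with the largest called difference and no overlap of wells, and the 5 genes nearest in pattern. Some genes that this rule would name are not reported here. Both fits were tested on simulated data. Promoter sequences are from RefSeq (GRCh38.p14), and exon overlaps from GENCODE v29. Alternatives were another pseudocount, scaling, filter, tool, no fold threshold, a replicate block and leaving out each library or line.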

Additional observations from a re-analysis of the deposited data

Results flagged for a closer look

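In 99 groups of 4 wells checked, 4 had a well that stood apart by Dixon's criterion; chance alone flags about 1 group in 20. CDKN1A was at 73.1 TPM in one low purity well of day 10, where the others lay at 91.2 to 94.5 TPM. In one low purity well of day 13 CDKN1A was at 84.0 TPM, where the others lay at 101 to 102 TPM. PHLDA3 was at 33.6 TPM in the low purity well of day 10 in which CDKN1A was low, where the others lay at 40.8 to 42.1 TPM. RRM2B was at 51.5 TPM in one low purity well of day 13, where the others lay at 42.6 to 43.9 TPM. None of these groups belongs to day 4.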

How the results depend on the processing

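No log2 difference of the 9 genes of at least 1 in size changed sign under any alternative run. Of 2538 recomputed values of the 9 genes, 72 moved by more than the spread, all under another pseudocount, scaling or tool. The spread was that between wells, or between lines in the RNA-only experiment. The run without the fold threshold repeats the main log2 differences, so its values among the 2538 could not move. For FAS the day 4 log2 difference was -2.54 with a pseudocount of 0.1 and -2.99 with edgeR on recovered reads. Leaving out TMM scaling shifted the all-gene median to -0.18 on day 8, -0.13 on day 13 and -0.12 on day 16, and the sign flipped for 2, 1 and 1 of the 9 genes on days 0, 2 and 13. The number of other p53 targets called (0, 0, 15, 6, 6, 7 and 13 on days 0 to 16; 10, 20, 12, 2 and 11 between days in high and 14, 12, 5, 1 and 5 in low purity) was recounted. Without the fold threshold it was 12, 30, 38, 27, 32, 29 and 34, then 41, 41, 39, 21 and 25, and 42, 34, 28, 21 and 22. On day 2 it was 5 with a pseudocount of 0.1, 1 without a filter and 4 with edgeR on recovered reads. From day 6 to 8 in high purity it was 5 without scaling. Leaving out single wells gave 0 to 2 on day 2, the highest without high purity well 1 or 4. It gave 7 to 11 on day 13, with 11 without high purity well 3 (the lone sample is assumed to vary like the other groups). In low purity it gave 3 to 5 from day 4 to 6, with 3 without well 4 of either day, and 1 to 2 from day 6 to 8, with 2 without well 4 of day 6. In the RNA-only experiment DESeq2 called 2 at stage 2 and 1 at stage 4, and edgeR called 0 to 1 at stage 3, with 1 without H9. With the well number as a replicate block the count on day 4 was 15, and the count was the same as without the block on every day and interval. Well numbers did not pair the classes, with correlations of same-numbered deviations from -0.14 to 0.21, and RNA-only counts stayed 0 without the pairing by line.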
